A study of Mus musculus with 4 samples.

Results

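The 45 genes described here make up the DNA replication and S-phase module. They were taken as a fixed list of gene symbols covering origin licensing, the replicative helicase, the kinase that fires origins, the polymerases, the sliding clamp and its loader, the single-stranded DNA binding protein RPA, Okazaki fragment processing, nucleotide supply, the histone chaperone Nasp and the transcription factor E2f1. The rule uses symbols and no measured value, although the list was drawn up with earlier results of these data known. All 45 were found by symbol among the 43629 gene identifiers of the count tables, and all 45 were among the 16500 genes that passed the filter on low counts. The libraries come from C57Bl/6 mouse hematopoietic stem and progenitor cells (HSPCs) selected for CD117 and carrying floxed alleles of Chaf1b, which encodes the middle subunit of the chromatin assembly factor CAF-1. Cells were cultured with SCF, IL6 and IL3, spinfected with the retroviral vector MIGR1 and sorted for its eGFP marker. The 2 control libraries, Chaf1b (fl/fl), received empty MIGR1, and the 2 deleted libraries, Chaf1b (-/-), received MIGR1-Cre, each for 48 h. Expression of Cre and loss of Chaf1b go together in this design and cannot be told apart. The mice of the study were young adults of both sexes. The sources used here do not say whether replicates came from separate animals or cultures, so p-values measure the spread between these libraries, which between the controls may be technical.

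DNA replication begins in G1, when the origin recognition complex with Cdc6 and Cdt1 loads the Mcm2 to Mcm7 ring onto chromatin, a step that geminin (Gmnn) blocks outside G1. In S phase the Cdc7-Dbf4 kinase and cyclin-dependent kinases convert the loaded ring into the active helicase with Cdc45 and the GINS complex, and polymerases alpha, delta and epsilon copy the unwound strands behind it with the clamp PCNA. CAF-1 works at the same forks, where PCNA brings it to newly made DNA to deposit histones H3 and H4. Most genes of this set are known targets of E2F factors and are transcribed around the G1/S boundary, so their level in a bulk culture follows how many cells cycle. Fewer cells in S phase and less RNA per cell cannot be told apart in these bulk libraries.

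The counts on genes were 22736626 and 25409926 in control replicates 1 and 2 and 23539015 and 18468637 in deleted replicates 1 and 2. Chaf1b, the targeted gene, was at 80.4 and 57.0 CPM (counts over the gene total of the library, corrected by its TMM factor) in the controls and 17.4 and 16.8 CPM in the deleted libraries, a log2 fold change of -2.01 (SE 0.25, adjusted p = 0.0330 over all 16500 genes in edgeR's quasi-likelihood test). That call was lost with 10 counts required in every library (adjusted p = 0.0651 in edgeR) and with the replicate number as a block (adjusted p = 0.0592 in edgeR), and kept in the other 9 alternatives, whose adjusted p-values ran from 1.7e-09 to 0.0472. Deleted replicate 1 stood apart from the others. It held 363 CPM of Xist, against at most 1.28 CPM in the other libraries, and almost no counts of Y-linked genes (0 to 0.0919 CPM for Ddx3y, Eif2s3y, Kdm5d and Uty, against 42.7 to 110.3 CPM in the others), which is the pattern of female cells, while the other 3 libraries had that of male cells. The deleted libraries thus differ in sex and animal, and the spread between them includes that difference. In deleted replicate 1, 25 interferon-stimulated genes summed to 3405 CPM, against 458 to 541 CPM in the others. All 8 HSPC markers were tested, and their summed level was 1756 and 1936 CPM in the controls and 1764 and 1900 CPM in the deleted libraries. Single markers went both ways, 4 with a negative and 4 with a positive log2 fold change. Without overlap between groups, Myb (-0.59) and Hoxa9 (-0.57) were lower, against 21.4% of all genes tested. Likewise Cd34 (0.57) and Ptprc (0.21) were higher, against 22.3% of all genes. None of these 4 markers was called. The 8 neutrophil markers summed to 44990 and 51540 CPM in the controls and 70240 and 46270 CPM in the deleted libraries, and 7 of them had a positive fold change. Cxcr2, the chemokine receptor of mature neutrophils, was called higher, with 126 and 103 CPM in the controls and 321 and 337 CPM in the deleted libraries, a log2 fold change of 1.52 (SE 0.22, adjusted p = 0.0429 in edgeR's test). Retnlg (2.08), Mmp9 (2.74) and Ltf (0.94) also had groups that stood apart on the higher side, without passing the threshold (log2 fold changes in parentheses). With Cxcr2 these were 4 of the 8 markers, against 22.3% of all genes tested on that side. Of the 8 megakaryocyte markers, 7 were tested and all 7 had a positive fold change. Their summed level was 102.6 and 99.5 CPM in the controls and 167 and 254.9 CPM in the deleted libraries. In the remaining marker lists no gene was called. All 6 stroma markers tested were positive, as were 4 of 5 lymphoid and 6 of 8 mast cell and basophil markers. Some of these rest on few counts, such as Pdgfra (1 and 2 in the controls, 19 and 27 in the deleted libraries). Cdh5 had counts of 4 and 2 in the controls and 12 and 19 in the deleted libraries. The stroma markers Col1a2 and Pdgfrb overlapped between groups. Erythroid markers were negative for 5 of 8. Macrophage markers split 4 and 4, summing to 181.2 and 506.2 CPM in the controls and 484.4 and 329 CPM in the deleted libraries. The part of these differences in the results on replication genes was not tested, and those results are also given without deleted replicate 1.

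Promoter sequences are shown for 6 genes, to compare genes of the helicase (Mcm5, Mcm6), the kinase that fires origins, the role with the lowest fold changes (Cdc7, Dbf4) and genes whose levels were alike in both groups (Pcna, Rrm2). Windows from 250 bases before to 50 bases after the RefSeq start, build GRCm38.p6, were found for 37 of the 45 genes, 44 windows in all. They were searched on both strands for the E2F-type letters TTTCCCGC, TTTCGCGC, TTTGCCGC and TTTGGCGC and for CCAAT, the core recognised by NF-Y. The E2F-type letters stood in 13 of the 44 windows (29.5%), against 2.26% of all 32851 promoter windows of the same length, and CCAAT stood in 56.8% against 37.4%. The stretches below lie before the start site and are written 5′ to 3′ on the strand of the gene, with the matched letters in capitals.
Mcm5, chr8:75109329-75109467, plus strand: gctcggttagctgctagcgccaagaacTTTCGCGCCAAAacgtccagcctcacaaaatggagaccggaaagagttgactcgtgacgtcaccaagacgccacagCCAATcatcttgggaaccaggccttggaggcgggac
Mcm6, chr1:128359706-128359885, minus strand: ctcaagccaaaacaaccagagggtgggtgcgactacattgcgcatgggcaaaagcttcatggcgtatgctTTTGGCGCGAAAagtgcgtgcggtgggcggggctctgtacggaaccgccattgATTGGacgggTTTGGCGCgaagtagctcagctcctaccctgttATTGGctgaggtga
Cdc7, chr5:106964142-106964314, plus strand: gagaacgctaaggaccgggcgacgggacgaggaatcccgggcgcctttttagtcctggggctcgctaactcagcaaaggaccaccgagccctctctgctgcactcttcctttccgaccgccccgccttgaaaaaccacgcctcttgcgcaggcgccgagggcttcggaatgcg
Dbf4, chr5:8422726-8422896, minus strand: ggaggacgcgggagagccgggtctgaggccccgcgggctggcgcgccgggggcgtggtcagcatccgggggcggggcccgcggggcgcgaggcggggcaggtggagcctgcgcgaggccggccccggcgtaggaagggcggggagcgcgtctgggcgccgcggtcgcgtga
Pcna, chr2:132253181-132253360, minus strand: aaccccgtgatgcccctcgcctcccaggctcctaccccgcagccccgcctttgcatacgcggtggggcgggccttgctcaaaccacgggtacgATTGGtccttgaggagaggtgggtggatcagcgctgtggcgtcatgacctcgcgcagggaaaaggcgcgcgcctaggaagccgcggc
Rrm2, chr12:24708074-24708253, plus strand: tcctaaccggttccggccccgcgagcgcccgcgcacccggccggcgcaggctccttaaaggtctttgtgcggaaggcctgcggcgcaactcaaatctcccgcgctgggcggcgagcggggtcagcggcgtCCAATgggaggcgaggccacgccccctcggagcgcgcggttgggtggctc
In Mcm5 and Mcm6, matches on both strands overlap and form a single run of capitals. The stretches of Cdc7 and Dbf4 held neither set of letters, and those of Pcna and Rrm2 held CCAAT but no E2F-type match. Gins3 and Rfc3, whose sequences are not shown, also held an E2F-type match. Their log2 fold changes were -0.13 and -0.18, and their groups overlapped. The 13 genes with an E2F-type match had a median log2 fold change of -0.38 between deleted and control libraries, with a range from -0.60 to 0.13. The 24 genes with a window but no match had a median of -0.24 and a range from -0.79 to 0.15. A match is a match of letters and not a measured binding site.

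Replication genes lay lower in the deleted libraries as a group, but none was a differentially expressed gene (DEG) at a 1.5-fold change and an adjusted p-value of 0.05. The log2 fold change of deleted over control was negative for 36 of the 45 genes, with a median of -0.30 (a ratio of 0.814). Over all genes tested, 52.5% were negative and the median was -0.03. The values ranged from -0.79 for Cdc7 to 0.19 for Gmnn, with standard errors from 0.20 to 0.36. Adjusted p-values ran from 0.165 to 0.996 in edgeR's quasi-likelihood test. In the same test 0.37% of all genes were called higher and 0.00606% lower. Before adjustment, 4 of the 45 genes had a p-value under 0.05, all of them lower in the deleted libraries, as did 3.1% of all genes. These were Cdc7, Dbf4, Pole2 and Lig1. No gene of the set was called by edgeR's exact test, whereas DESeq2 called Cdc7 lower with an adjusted p of 0.0482 (0.0756 to 0.584 under the other alternatives), beside 0.21% of all genes called lower by that tool.

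Both deleted libraries lay below both controls for 21 of the 45 genes (46.7%), against 21.4% of all genes tested. No gene of the set had both deleted libraries above both controls, against 22.3% of all genes. The other 24 genes overlapped between groups. With 2 libraries a group the smallest p an exact permutation test can give is 0.333, so these counts are descriptions.

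**Figure D1:**
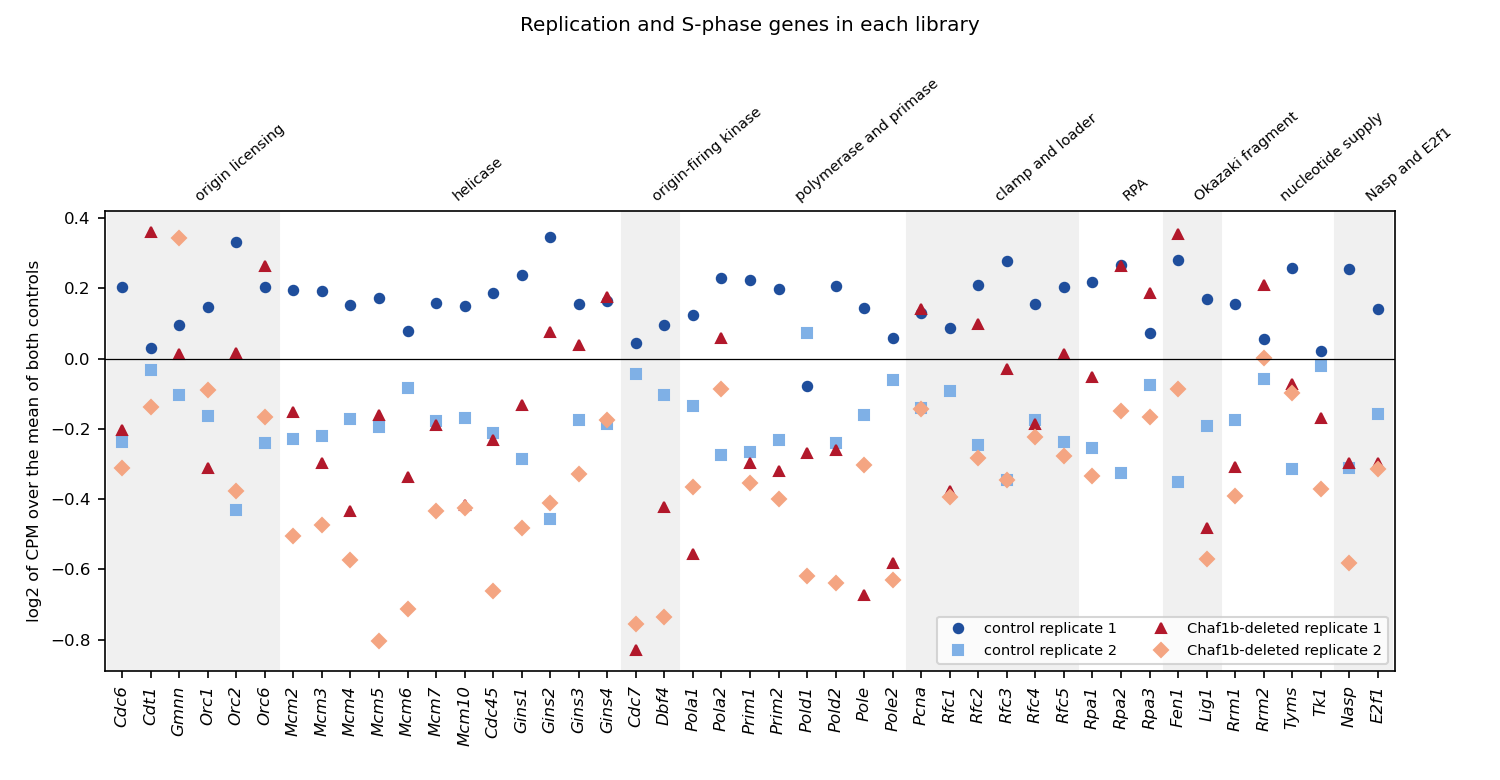
Level of each of the 45 genes in the 4 libraries, as the log2 of its CPM over the mean of both controls (vertical axis), with genes grouped by role along the horizontal axis. Control replicate 1 (dark blue circles) is the highest of the 4 libraries for 36 genes and deleted replicate 2 (orange diamonds) the lowest for 30.

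Of all roles, the kinase that fires origins had the lowest median log2 fold change, -0.68 over its 2 subunits. Cdc7, the catalytic subunit (chromosome 5, 107393341 to 107413451, build mm9), was at 73.6 and 69.3 CPM in the controls and 40.2 and 42.3 CPM in the deleted libraries. The groups did not overlap, and the distance between them was many times the spread within each. Its log2 fold change was -0.79 (SE 0.20, adjusted p = 0.165 in edgeR's quasi-likelihood test), and it stayed between -0.84 and -0.76 over the fits that lacked 1 library each. Dbf4, the regulatory subunit that activates Cdc7 (chromosome 5, 8396973 to 8422716), was at 138 and 121 CPM in the controls and 96.7 and 77.8 CPM in the deleted libraries. Its log2 fold change was -0.57 (SE 0.21, adjusted p = 0.333 in edgeR's test). Both deleted libraries lay below both controls, with deleted replicate 2 the lowest. Per exon length, the ratio of Cdc7 to Dbf4 was 0.845 and 0.913 in the controls and 0.661 and 0.864 in the deleted libraries.

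All 8 genes of the polymerases and primase had a negative fold change, with a median log2 value of -0.43, and 7 of the 8 did not overlap between groups. Pole2, the second subunit of the leading-strand polymerase epsilon (chromosome 12, 70302766 to 70329177), had the lowest value, at 32.7 and 30.1 CPM in the controls and 21.0 and 20.3 CPM in the deleted libraries. Here too the groups stood apart by far more than their own spread. Its log2 fold change was -0.60 (SE 0.22, adjusted p = 0.313 in edgeR's quasi-likelihood test), with a range from -0.67 to -0.55 over the fits without 1 library. Cdc7 and Pole2 were the 2 genes of the set that differed by more than 1.5-fold. The catalytic subunits Pole, Pold1 and Pola1 had log2 fold changes of -0.48, -0.43 and -0.46. Pola1 lies on chromosome X, and its level was 125 CPM in deleted replicate 1 and 143 CPM in deleted replicate 2. The primase subunits Prim1 and Prim2, which make the RNA primers, had values of -0.33 and -0.36, and Pold2, an accessory subunit of the lagging-strand polymerase delta, had -0.44. Pola2, the accessory subunit of polymerase alpha, was the exception. It was at 93.04 and 65.5 CPM in the controls and 82.5 and 74.6 CPM in the deleted libraries, so that both deleted values fell between the controls, and its log2 fold change was -0.01 (SE 0.23).

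Of the 12 helicase genes, 11 had a negative fold change and 6 did not overlap, and the median log2 value was -0.35. Mcm6, a subunit of the ring (chromosome 1, 130228168 to 130256233), had the largest difference, with 510.4 and 457 CPM in the controls and 383 and 295 CPM in the deleted libraries. The groups were separate, and the spread within each was smaller than the gap between the means. The log2 fold change was -0.51 (SE 0.24, adjusted p = 0.451 in edgeR's quasi-likelihood test). Mcm4 had -0.50, Mcm5 -0.45, Mcm3 -0.38, Mcm2 -0.32 and Mcm7 -0.31 on the log2 scale. Mcm10, which joins the helicase as it is activated, had -0.42, and Cdc45 had -0.43. The GINS genes were closer to the controls, with -0.30 for Gins1, -0.15 for Gins2, -0.13 for Gins3 and 0.01 for Gins4, and all 4 overlapped between groups. Gins4 was at 54.0 and 42.3 CPM in the controls and 54.4 and 42.6 CPM in the deleted libraries, so the libraries numbered alike were nearly equal.

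The subunits of the ring enter it in equal numbers, but their RNA levels per kilobase of exon differed. In all 4 libraries Mcm3 was the highest, Mcm6 the second, Mcm4 the fifth and Mcm7 the lowest, while Mcm2 and Mcm5 exchanged places in deleted replicate 2. The highest subunit exceeded the lowest by 2.97 and 2.82 times in the controls and by 2.69 and 2.82 times in the deleted libraries. The mean level of the 6 subunits was 100.4 and 79.6 CPM per kilobase in the controls and 74.9 and 59.7 CPM per kilobase in the deleted libraries. Control replicate 2 and deleted replicate 1 were close in this mean, and control replicate 1 and deleted replicate 2 lay at its ends. Over the whole set, Rrm2 and Mcm3 had the highest level per length, at a mean of 109.9 and 109.4 CPM per kilobase over the 4 libraries. Orc1 and Fen1 had the lowest, at 4.61 and 3.85. This order uses the length of all annotated exons joined. Exons of Mcm7, Orc1 and Fen1 overlap other genes, so their places in it are less certain. Neighbours in that order, such as Rrm2 and Mcm3, differed by less than the spread between libraries.

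**Figure D2:**
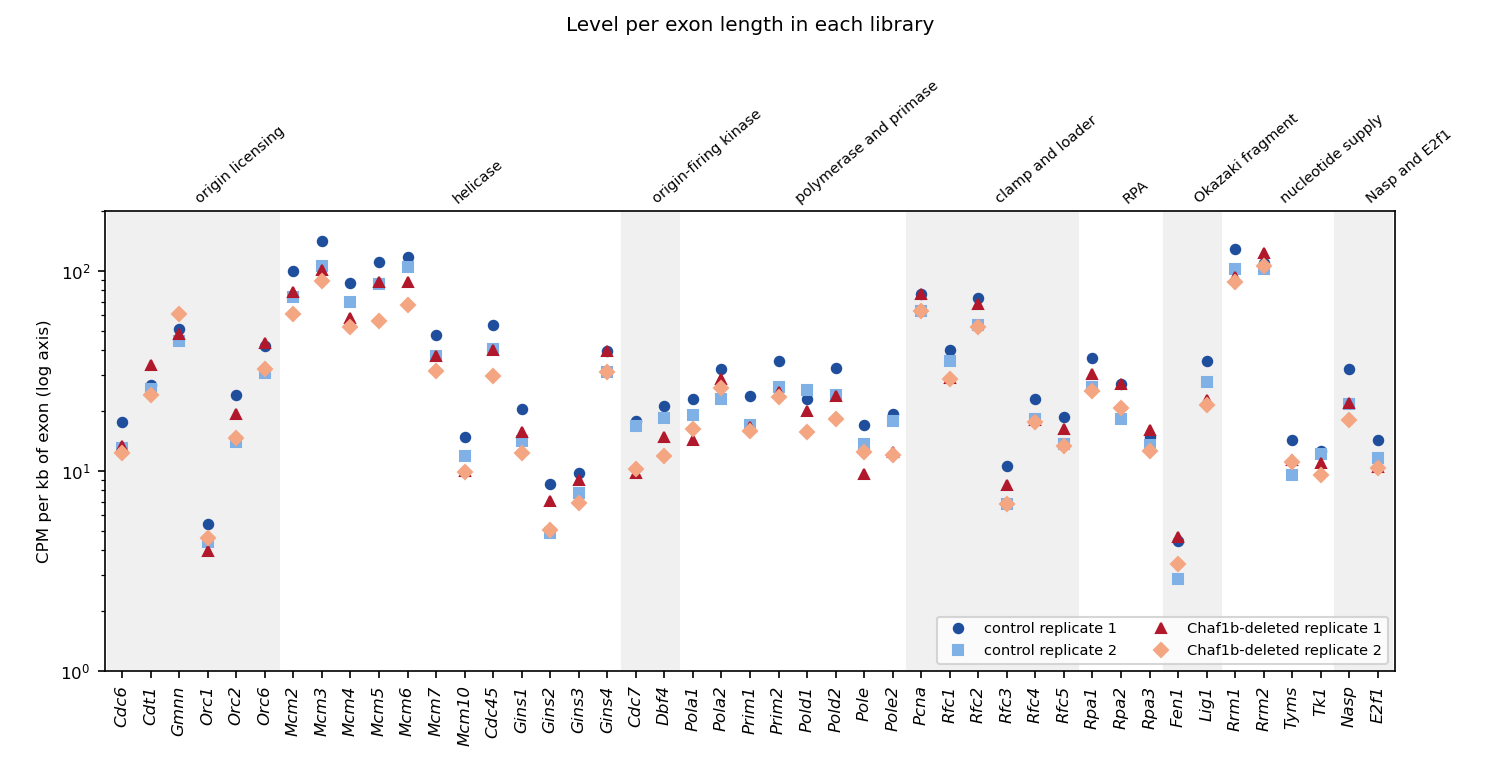
Level of each gene per kilobase of exon in the 4 libraries, in CPM per kilobase on a log axis, with genes grouped by role. Mcm3 and Rrm2 are at the top with means of 109.4 and 109.9, and Fen1 at the bottom with 3.85.

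Licensing genes did not differ in a common direction. Of 6 genes, 3 had a negative and 3 a positive fold change, the median log2 value was -0.05 and all 6 overlapped between groups. Cdc6, the ATPase that loads the ring together with Cdt1, was at 91.7 and 67.6 CPM in the controls and 69.2 and 64.2 CPM in the deleted libraries. Only control replicate 1 stood above the rest, and the log2 fold change was -0.26 (SE 0.23). Gmnn, the inhibitor of Cdt1, was at 61.2 and 53.2 CPM in the controls and 57.8 and 72.5 CPM in the deleted libraries. Deleted replicate 2 was the highest and deleted replicate 1 lay between the controls, with a log2 fold change of 0.19 (SE 0.22). Cdt1 had a log2 fold change of 0.13, and Orc1, Orc2 and Orc6, subunits of the origin recognition complex, had -0.20, -0.17 and 0.07. Per exon length, the ratio of Cdt1 to its inhibitor Gmnn was 0.522 and 0.574 in the controls and 0.695 and 0.392 in the deleted libraries, which lay on either side of the controls.

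Fold changes of the clamp and its loader differed in size, and these differences were not tested. Pcna, the sliding clamp that holds polymerases on DNA and binds CAF-1 (chromosome 2, 132074898 to 132079050), was at 183 and 152 CPM in the controls and 184 and 151 CPM in the deleted libraries. The groups overlapped almost completely, with a log2 fold change of 0.0049 (SE 0.22). Rfc1, the large subunit of the loader (chromosome 5, 65653091 to 65726909), was at 241 and 212 CPM in the controls and 174 and 172 CPM in the deleted libraries. Those groups were separate, and the log2 fold change was -0.39 (SE 0.20, adjusted p = 0.506 in edgeR's quasi-likelihood test). The small subunits Rfc2, Rfc3, Rfc4 and Rfc5 had log2 values of -0.08, -0.18, -0.20 and -0.12, of which only Rfc4 did not overlap between groups. RPA, which coats single-stranded DNA, differed little. Its large subunit Rpa1 was at 204 and 147 CPM in the controls and 169.6 and 139.5 CPM in the deleted libraries, with a log2 fold change of -0.18 (SE 0.24). Rpa2 was at 81.8 and 54.2 CPM in the controls and 81.6 and 61.4 CPM in the deleted libraries, with a log2 fold change of 0.07 (SE 0.27). In both genes the spread within each group was wider than the distance between the group means, and Rpa3 had a log2 value of 0.02.

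The nuclease and the ligase that finish Okazaki fragments had fold changes of opposite sign, neither was called, and the difference between them was not tested. Lig1, the ligase that seals them (chromosome 7, 13862632 to 13896782), was at 173 and 135 CPM in the controls and 110.1 and 104 CPM in the deleted libraries. The groups did not overlap, and the controls were spread more widely than the deleted libraries. The log2 fold change was -0.53 (SE 0.21, adjusted p = 0.376 in edgeR's quasi-likelihood test), with a range from -0.70 to -0.34 over the fits without 1 library. Fen1, the flap nuclease, had the lowest counts of the set, with 10.8 and 6.93 CPM in the controls and 11.3 and 8.32 CPM in the deleted libraries. Its groups overlapped, and its log2 fold change of 0.15 had the largest SE of the 45 genes, 0.36. Its exons overlap those of Gm10143 and 1810006K21Rik on the opposite strand in the annotation, and the strand setting of the counting is not given in the sources used here, so reads of these genes cannot be told apart.

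Genes of nucleotide supply had fold changes of both signs, and none was called. Rrm1, the large subunit of ribonucleotide reductase, which makes deoxyribonucleotides (chromosome 7, 109590209 to 109618285), was at 514 and 409 CPM in the controls and 373 and 352 CPM in the deleted libraries. The groups did not overlap, with a log2 fold change of -0.35 (SE 0.23, adjusted p = 0.606 in edgeR's quasi-likelihood test). Rrm2, the small subunit whose amount limits the enzyme in S phase (chromosome 12, 25393106 to 25399011), was at 304 and 282 CPM in the controls and 339 and 293 CPM in the deleted libraries. Deleted replicate 2 lay between the controls, and the log2 fold change was 0.11 (SE 0.21). Per exon length, the ratio of Rrm2 to Rrm1 was 0.854 and 0.994 in the controls and 1.31 and 1.20 in the deleted libraries, so that both deleted values were above both control values, a description with no test. Tk1, the salvage thymidine kinase, had a log2 fold change of -0.27 without overlap, and Tyms, which makes thymidylate, had -0.08 with overlap. Nasp, the chaperone that holds soluble H3 and H4, was at 242 and 163 CPM in the controls and 165 and 135 CPM in the deleted libraries. Its groups overlapped, because control replicate 2 lay just below deleted replicate 1, and the log2 fold change was -0.43 (SE 0.25). E2f1, which drives G1/S transcription, was at 44.9 and 36.5 CPM in the controls and 33.1 and 32.7 CPM in the deleted libraries. The groups were separate, with a log2 fold change of -0.31 (SE 0.21, adjusted p = 0.629 in edgeR's quasi-likelihood test).

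**Figure D3:**
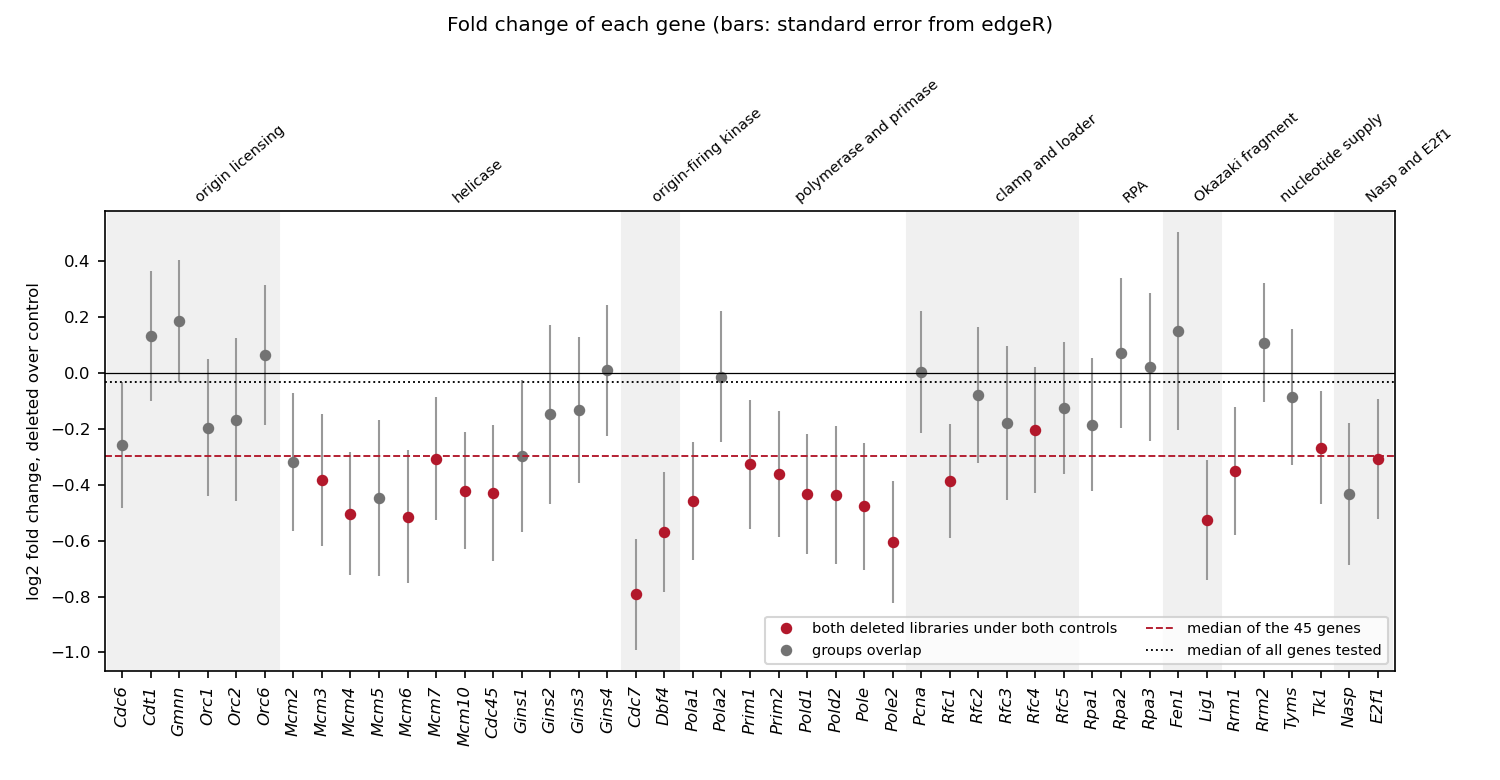
Log2 fold change of each gene, deleted over control, with its standard error derived from edgeR's F statistic, for the 45 genes grouped by role. Red points mark the 21 genes whose deleted libraries both lie under both controls, and the dashed and dotted lines mark the median of the 45 genes (-0.30) and of all genes tested (-0.03).

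Replicates of the same group differed for these genes by as much as the groups did. Control replicate 1 was above control replicate 2 for 44 of the 45 genes, with a median log2 ratio of 0.35, while the median over all genes was 0.04. Deleted replicate 1 was above deleted replicate 2 for 40 genes, with a median of 0.28. Between groups, deleted replicate 2 was below control replicate 1 for 44 genes (median -0.54) and below control replicate 2 for 33 genes (median -0.15). Deleted replicate 1 was below control replicate 1 for 38 genes (median -0.35) but below control replicate 2 for only 22 of 45, with a median of 0.01. These pairs share libraries and are not independent. Summed over the 45 genes, the level was 6432 and 5133 CPM in the controls and 5026 and 4327 CPM in the deleted libraries.

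**Figure D4:**
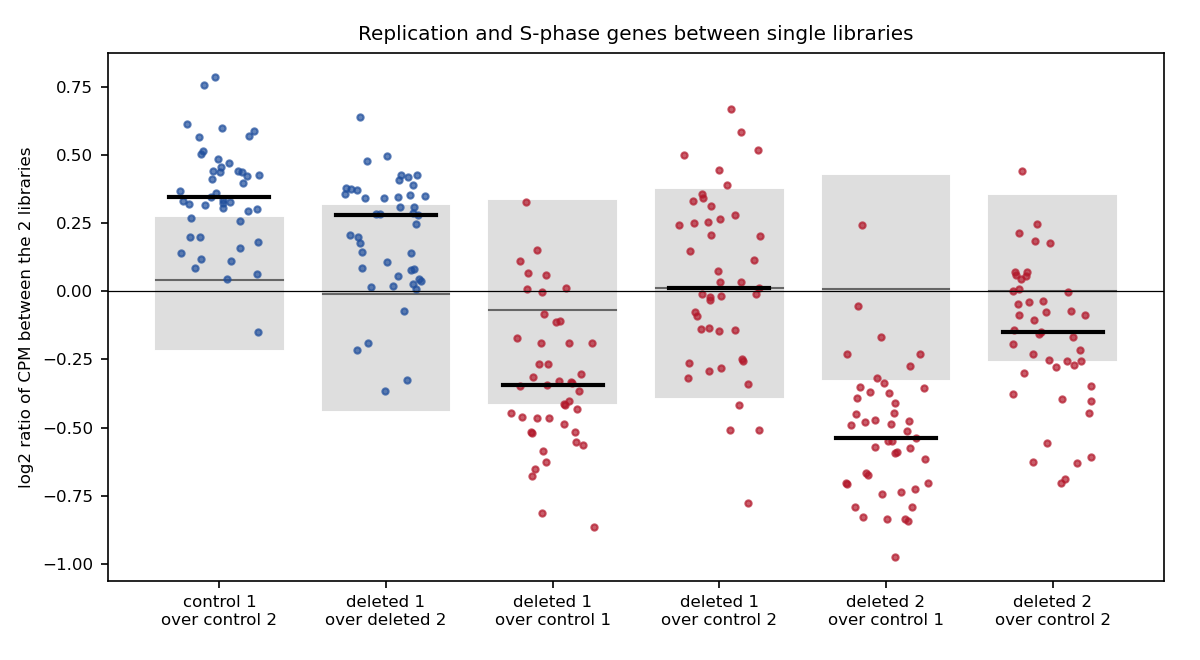
Log2 ratio of CPM between pairs of libraries, with 0.5 CPM added, for each of the 45 genes (points) with their median (thick bar). The grey boxes hold the middle part of all genes tested, from the lower to the upper quartile, with their median. The 45 genes sit above all genes between both pairs of replicates (medians 0.35 and 0.28) and level with them between deleted replicate 1 and control replicate 2 (0.01).

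Leaving out libraries changed the size of the group difference. Without control replicate 1, the median log2 fold change of the 45 genes was -0.07 and 27 were negative, and 21 did not overlap on the lower side (46.7%), against 32.9% of all genes. Without control replicate 2 the median was -0.47, and 36 genes did not overlap (80%), against 36.1% of all genes. Without deleted replicate 1, the library that stood apart, the median was -0.37, 44 genes were negative and 34 did not overlap (75.6%), against 37.9% of all genes. Without deleted replicate 2 the median was -0.17, and 22 genes did not overlap (48.9%), against 40.3% of all genes. On the higher side, the genes without overlap numbered 10, 0, 1 and 8 in these fits, against 33.1%, 32.1%, 38.5% and 37.4% of all genes. The sign of the fold change was the same in all 4 of these fits for 28 genes and changed in at least 1 for 17. Among the 28 were Mcm2 to Mcm7, Mcm10, Cdc45, both kinase subunits, Lig1, Rrm1, Tk1, Nasp, E2f1 and the polymerase and primase genes other than Pola2, all with a negative value in each fit.

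Fold changes were lower for longer genes. The 15 genes with the shortest joined exons, 1136 to 2422 bases, had a median log2 fold change of -0.08, and 5 of them did not overlap on the lower side. The 15 of intermediate length had a median of -0.32 and the 15 longest, 4426 to 9590 bases, a median of -0.39, with 7 and 9 genes without overlap. Over all genes tested, of any length, 21.4% did not overlap on the lower side. That share was not taken by length. All genes of the same lengths with at least 10 CPM on average had medians of -0.02, -0.05 and -0.09. Across the 45 genes, Spearman's rho of fold change on length was -0.47, and across all 9156 such genes it was -0.10. These genes share libraries and are not independent, so no p is given. Between replicates of the same group the rho over all 9156 genes was -0.21 for the controls and -0.56 for the deleted libraries. Across the 45 genes the same comparisons gave -0.05 and -0.36. The share of uniquely aligned reads that fell on no annotated gene was 42.3% and 42.1% in the controls and 35.8% and 48.3% in the deleted libraries. The part of length and of these shares in the lower levels was not tested.

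**Figure D5:**
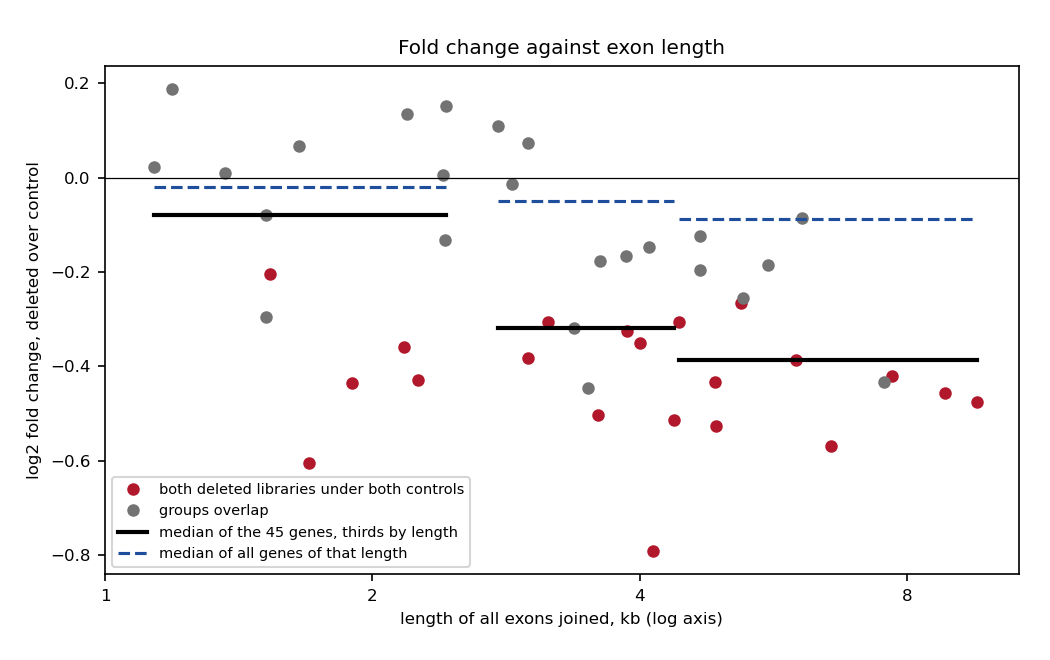
Log2 fold change of each of the 45 genes, deleted over control, against the length of its joined exons in kilobases on a log axis. Black bars give the median of 15 genes each (-0.08, -0.32 and -0.39 from short to long), dashed blue bars that of all genes of the same length, and red points genes without overlap on the lower side.

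Genes of the same pathway outside the set were read from 4 further lists, 78 genes in all. None was called in edgeR's quasi-likelihood test, and their median log2 fold change was -0.25. Of the 78, 7 had an unadjusted p under 0.05 in that test on the lower side, against 3.1% of all genes, and 3 on the higher side. Of 30 other replisome genes, 27 had a negative fold change, with a median of -0.38. On the lower side, 20 did not overlap, against 21.4% of all genes tested. Clspn, the adaptor of the replication checkpoint, was at 157 and 116 CPM in the controls and 76.7 and 79.2 CPM in the deleted libraries, a log2 fold change of -0.81 (SE 0.22, adjusted p = 0.206 in edgeR's test). Orc3, a subunit of the origin recognition complex, had a log2 fold change of -0.65 and Timeless, which steadies stalled forks, had -0.64. Of 18 other S-phase genes, 16 were negative and 11 did not overlap on the lower side, against the same 21.4% of all genes. Their smallest p-values were those of the helicase Blm with -0.70, the nuclease Exo1 with -0.54 and Atad2 with -0.44.

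The remaining lists were mixed. Of 12 other genes of nucleotide metabolism, 9 were negative with a median of -0.17. The groups stood apart for 2 genes, both on the higher side, against 22.3% of all genes on that side. Samhd1, the hydrolase that breaks down deoxyribonucleotides, was at 164 and 188.5 CPM in the controls and 398 and 280.1 CPM in the deleted libraries, a log2 fold change of 0.94 (SE 0.25, adjusted p = 0.178 in edgeR's test). It was highest in deleted replicate 1, the library with high interferon-stimulated genes, a group to which Samhd1 is also known to belong. In deleted replicate 2, where the interferon-stimulated genes summed to 541 CPM, Samhd1 was above both controls as well. The part of interferon in its level was not tested. The kinase Dck had 0.33 and Shmt1, of folate metabolism, had -0.38. Of 18 genes that control the G1/S step, 11 were negative, with a median of -0.15. The groups stood apart for 5 of the 18 on the lower side and for 3 on the higher side, against 21.4% and 22.3% of all genes tested. The largest values were positive. Cdkn1a, which encodes the p21 inhibitor of cyclin-dependent kinases, was at 59.4 and 76.4 CPM in the controls and 120.4 and 117 CPM in the deleted libraries, a log2 fold change of 0.81 (SE 0.21, adjusted p = 0.187 in edgeR's test). E2f2 had 0.56 and the inhibitor Cdkn1b 0.40, both without overlap between groups.

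The counts of the 45 genes ran from 163 to 11792 a library, and the widest 95% Wilson interval of a level was 15.4% of it on either side, which covers counting error only. For Pcna, 38.04% of the exonic stretches of 31 bases occur elsewhere in the genome, and the share was 28.7% for Tyms, 26.2% for Cdc6, 24.0% for Mcm7, 20.3% for Rfc5, 17.5% for Rrm2, 14.9% for Rpa3 and 12.01% for Tk1, so their counts are less certain. Exons of Mcm7, Cdc45, Gins2, Orc1, Orc2, Pole, Rfc4, Rfc5, Lig1, Tyms and Tk1 also overlap a gene on the opposite strand.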

How the data were processed

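RNA-seq was made from 4 HSPC libraries with a stranded total RNA kit after ribosomal RNA depletion. The authors aligned reads to mm9 with STAR and obtained gene counts with HTSeq-count; each deposited table holds the raw counts of a library. The annotation release and the strand setting of the counting are not given in the sources used here. Groups came from the sample labels. Names, exon lengths and coordinates came from the NCBIM37 annotation, which named 33068 of 43629 identifiers.

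The counts were analysed with edgeR 4.0.16 in R 4.3.3 (limma 3.58.1): expression filter with a minimum count of 10, TMM factors from 0.925 to 1.06, glmQLFit and glmQLFTest without a covariate, common dispersion 0.0763. As in the study, genes were called (DEGs) at 1.5-fold or more with an adjusted p-value (Benjamini-Hochberg, 16500 genes) under 0.05. The method was tested on simulated data with changes larger than any in this set, so that test does not bear on effects of the size seen here. The 45 genes and all other lists were chosen with earlier results of these data known. Values in every library were given for genes called, for the lowest and highest fold change in each role and for non-overlapping genes with an unadjusted p under 0.05, and of each further pathway list, the G2 and mitosis genes and the neutrophil markers the 3 genes with the smallest p were named (Ltf was added after its value was seen). Alternatives were DESeq2's size factors, library size only, no low-count filter, 10 counts in every library, the exact test, DESeq2 1.42.0, no fold threshold, the replicate number as a block and each library left out, where the lone library was assumed to vary like the other group. Promoters were RefSeq windows of GRCm38.p6, matched by symbol.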

Additional observations from a re-analysis of the deposited data

How the results depend on the processing

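With 2 libraries a group, 1 library can move any value, and the standard errors of these genes, 0.20 to 0.36, allow only large changes to be called. Of 495 results on single genes under the alternatives, 460 had the same direction and call, and Cdc7 (-0.79, adjusted p = 0.0482) was called in DESeq2 alone, so that 1 gene of the set was called lower there and none under any other setting. The number of genes without overlap on the higher side was 1 with library size only and 1 with no low-count filter. Leaving out 1 library gave 21 to 36 genes without overlap on the lower side, 0 to 10 on the higher side, and a median of -0.466 to -0.0695. Chaf1b had adjusted p-values from 1.7e-09 to 0.0651 and was at -2.00 with 10 counts in every library (adjusted p = 0.0651) and at -1.99 with the replicate number as a block (adjusted p = 0.0592), past the threshold in neither, and at -2.24 to -1.74 without 1 library. The replicate block left the median of the set at -0.28 and called none of the 45 genes, with 8 unadjusted p-values under 0.05 against 4. Over all genes tested, the deviations of same-numbered libraries from their group mean had a correlation of 0.013. Within the set, replicate 1 was above replicate 2 for 44 genes in the controls and 40 in the deleted libraries. The sign turned with library size only for Pcna (-0.025), Gins4 (-0.021) and Rpa3 (-0.011), and for Pola2 with no low-count filter (0.022) and under the block (0.0067). Without 1 library the sign turned for 17 genes, with ranges of -0.143 to 0.38 for Cdt1, -0.133 to 0.493 for Fen1, -0.495 to 0.2999 for Gins2, -0.334 to 0.0597 for Gins3, -0.182 to 0.195 for Gins4, -0.5003 to 0.257 for Orc2, -0.172 to 0.296 for Orc6, -0.151 to 0.16 for Pcna, -0.246 to 0.253 for Pola2, -0.291 to 0.159 for Rfc2, -0.459 to 0.159 for Rfc3, -0.33 to 0.106 for Rfc5, -0.403 to 0.062 for Rpa1, -0.195 to 0.39 for Rpa2, -0.171 to 0.205 for Rpa3, -0.00424 to 0.227 for Rrm2 and -0.346 to 0.222 for Tyms. The cause was not tested.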

Other observations

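Of 52 genes of G2 and mitosis, 46 had a negative fold change, with a median log2 value of -0.33. Both deleted libraries lay below both controls for 34 of them, against 21.4% of all genes tested. None was called in edgeR's quasi-likelihood test, and 16 had an unadjusted p under 0.05, all on the lower side, against 3.1% of all genes. Their summed level was 13670 and 13700 CPM in the controls and 9631 and 9588 CPM in the deleted libraries. The genes with the smallest p-values were Anln, Hmgb2 and Cenpe. Anln, which organises the cleavage furrow, was at 185 and 233 CPM in the controls and 117 and 118 CPM in the deleted libraries, with a log2 fold change of -0.83 (SE 0.21, adjusted p = 0.173 in edgeR's test). Hmgb2, a chromatin protein of dividing cells, had -0.75 and Cenpe, a motor protein of the kinetochore, had -0.79, both without overlap between groups.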
